A study of Homo sapiens with 8 samples.

Results

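Long noncoding RNAs (lncRNAs) that have been linked to hypoxia, 6 in number, were followed in renal carcinoma cells with and without introduced VHL: NEAT1, MALAT1, MIR210HG, PVT1, LUCAT1 and H19. They were chosen by symbol from the 43682 gene symbols of the RNA count tables, where all 6 are listed. A filter on low counts was passed by 5 of them, H19 being the exception, and by 24417 genes in all. The cells were UM-RC-2, an established line of clear cell renal cell carcinoma that carries the VHL change p.Arg82Pro per the labels, grown in DMEM with fetal bovine serum. They had been infected with lentivirus and selected in blasticidin so that they stably expressed either VHL (the VHL group) or the construct labelled VEC (the VEC group), which serves here as the control. Whether a group is a pool or a single clone is not given in the labels, and the VEC cells went through the same infection and selection. Each group has 2 RNA libraries, numbered 1 and 2. The labels give the molecule as total RNA for both replicate 1 libraries and as polyA RNA for both replicate 2 libraries, so the replicates of a group differ in RNA preparation, and the number pairs 1 VEC with 1 VHL library of the same kind.

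VHL is the substrate receptor of a ubiquitin ligase that marks the alpha subunits of hypoxia-inducible factors (HIF) for degradation when oxygen is present. Cells without working VHL therefore keep HIF target genes active at normal oxygen, and several lncRNAs have been described among those targets in other systems. NEAT1 is the scaffold RNA of paraspeckles, nuclear bodies that hold RNA and RNA-binding proteins. MALAT1 is a nuclear RNA of splicing speckles, and MIR210HG is the host transcript of miR-210, a microRNA known for its induction by HIF. PVT1 is transcribed beside the MYC oncogene, LUCAT1 is known as a target of the oxidative stress factor NRF2, and H19 is an imprinted fetal transcript that hosts miR-675. MALAT1 and the long form of NEAT1 have a 3′ end that is made by RNase P cleavage and lies in a triple helix. Both lack an ordinary poly(A) tail, while the short form of NEAT1 is polyadenylated.

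The sequences below show the start region of MIR210HG, the member called when the replicate number was added to the edgeR fit. Beside it are the start region of LUCAT1, a member with nearly equal levels in both groups, and the mature microRNA that MIR210HG hosts. Promoter entries of RefSeq (GRCh38.p14, from 250 bases before to 50 bases after the gene start) were matched for 4 of the 6 members, MIR210HG, LUCAT1, MALAT1 and H19, and MALAT1 has 2 entries. The count tables are on hg19, and these coordinates belong to GRCh38.p14 alone. In the promoters, capitals mark matches to ACGTG or GCGTG, the core letters of HIF response elements, or, in LUCAT1, to TGACNNNGC, the core of the antioxidant response element that NRF2 binds. In the microRNA, capitals mark the seed, bases 2 to 8.
MIR210HG promoter, chr11:568408-568707, minus strand: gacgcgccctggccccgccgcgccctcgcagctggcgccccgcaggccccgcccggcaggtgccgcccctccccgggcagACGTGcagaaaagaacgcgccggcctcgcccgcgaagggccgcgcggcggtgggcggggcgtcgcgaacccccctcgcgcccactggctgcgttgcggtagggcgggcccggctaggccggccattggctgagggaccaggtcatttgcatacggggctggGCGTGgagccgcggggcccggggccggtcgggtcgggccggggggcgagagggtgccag
LUCAT1 promoter, chr5:91314353-91314652, minus strand: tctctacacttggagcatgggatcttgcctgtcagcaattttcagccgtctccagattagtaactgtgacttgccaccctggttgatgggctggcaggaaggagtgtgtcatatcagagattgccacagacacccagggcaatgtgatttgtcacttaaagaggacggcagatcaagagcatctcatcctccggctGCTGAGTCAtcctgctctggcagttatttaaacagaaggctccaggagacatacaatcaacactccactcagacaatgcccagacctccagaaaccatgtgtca
hsa-miR-210-3p, chr11:568112-568133, minus strand: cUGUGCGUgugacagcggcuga

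The MIR210HG window holds 1 match to ACGTG, which begins 170 bases before the gene start, and 1 match to GCGTG, which begins 9 bases before it. Both strands were searched. In the LUCAT1 window 0 matches to either were found, and its single match to TGACNNNGC, on the opposite strand of the gene, overlaps a match to the AP-1 motif TGACTCA. H19 had 0 matches to ACGTG or GCGTG, and the MALAT1 windows had 2 and 1 matches to GCGTG. TGACNNNGC was not particular to LUCAT1, since the same MALAT1 windows had 2 and 0 matches to it. The MIR210HG and H19 windows had 0. Over the 35116 RefSeq promoter windows, ACGTG is present in 21.4%, GCGTG in 36.5%, either of them in 48.4% and TGACNNNGC in 13.3%, so a match is common and describes letters only. In the MIR210HG window 240 of 300 bases are G or C, against 149 of 300 in the LUCAT1 window, where the median share over all windows is 58.7%.

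Total counts lay between 16230291 and 50027348 per library, the polyA libraries being the deeper ones. The libraries separated by replicate number: Pearson's r across 21670 genes was 0.991 and 0.978 within the pairs but 0.504 (VEC) and 0.534 (VHL) between replicates of a group. Of all counts, lncRNA genes took 0.793% (VEC) and 0.730% (VHL) in total RNA and 2.12% and 2.11% in polyA RNA, and pseudogenes took 1.40% and 2.09% in total RNA but 31.3% and 25.0% in polyA RNA. VHL itself, the introduced gene, was measured at 37.1 CPM (VEC) against 146 CPM (VHL) in total RNA, and at 88.9 against 151 CPM in polyA RNA. Of 7 renal and epithelial markers, 6 (PAX8, PAX2, KRT8, KRT18, VIM and CDH2) had counts in each library and KRT19 had 0 in all 4, while the endothelial markers PECAM1, CDH5 and VWF and the T cell marker CD3E had 0 throughout. PTPRC, a pan-leukocyte marker, had 0 counts in total RNA and 72 (VEC) and 63 (VHL) in polyA RNA. CD68, a macrophage and lysosomal marker, was counted in every library, at 407 (VEC) and 217 (VHL) in total RNA and 1925 and 1505 in polyA RNA, and the stromal markers COL1A1 and PDGFRB had at most 1 count in a library. The part of such cells in the results was not tested. Of the 15 markers 8 were tested, and edgeR called 0 of them with or without the replicate block described below (0 at an unadjusted p under 0.05 without it). With the block 3.10% of all tested genes were called. Labels do not say that the libraries came from separate cultures, so p-values measure the spread between these samples, which may be technical. Levels are CPM, the counts of a gene relative to the library size after TMM scaling, which are not corrected for transcript length, so they are compared between libraries and not between genes. These are bulk libraries, in which fewer cells with a transcript and less of it per cell cannot be told apart.

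MIR210HG was the only one of the 5 tested members called in the edgeR fit with the replicate block, and none was called without the block. It was lower with VHL than with VEC in each pair. Its level was 8.12 CPM (188 counts) for VEC against 1.45 CPM (27 counts) for VHL in total RNA, and 18.9 CPM (863 counts) against 14.8 CPM (605 counts) in polyA RNA. The VHL library of total RNA stands lowest by far, and the groups overlap, because VHL in polyA RNA lies above VEC in total RNA. The log2 change from VEC to VHL was -2.44 in the total RNA pair, with a 95% interval for counting error from -3.13 to -1.90, and -0.35 in the polyA pair, from -0.51 to -0.20. These exact binomial intervals do not overlap, so the size of the fall depended on the pair by more than counting error: 5.61-fold in total RNA and 1.28-fold in polyA RNA.

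The test of MIR210HG depends on the replicate number. With group as the only term (the group-only fit), its log2 change was -0.73 ± 1.53 (SE, n = 2 libraries per group, adjusted p = 0.99999 by the quasi-likelihood test of edgeR with the Benjamini-Hochberg method). With the replicate number added as a block (the blocked fit), it was -1.18 ± 0.31 (adjusted p = 0.00781, edgeR), and MIR210HG ranked 395 by p-value of 24417 genes. With 1 residual degree of freedom, this fit borrows the spread of other genes. Its SE and p therefore do not fully reflect how far the pairs differed for MIR210HG (-2.44 and -0.35). Calls are adjusted p-values under 0.05. This makes 1 of 5 tested members called, in the direction lower in VHL, where 3.10% of all tested genes were called in either direction in that fit and 2.35% were called lower. In the group-only fit 0 members and 0% of genes were called (0 of 24417). An unadjusted p under 0.05 was reached by 22 genes (0.0901%), none of them a member. The group-only value turned to 0.05 without VEC replicate 2 and to 0.13 without VHL replicate 1. Leaving out 1 library makes the groups unequal in RNA preparation, so these values mix preparation with group. DESeq2 with the block, which called 4.93% of genes, did not call MIR210HG (log2 change -1.43 ± 0.95, adjusted p = 0.495). In the edgeR alternatives with the block its adjusted p-values ran from 0.00163 to 0.0128. Without the block DESeq2 called 0 members and 0.0246% of genes.

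**Figure D1:**
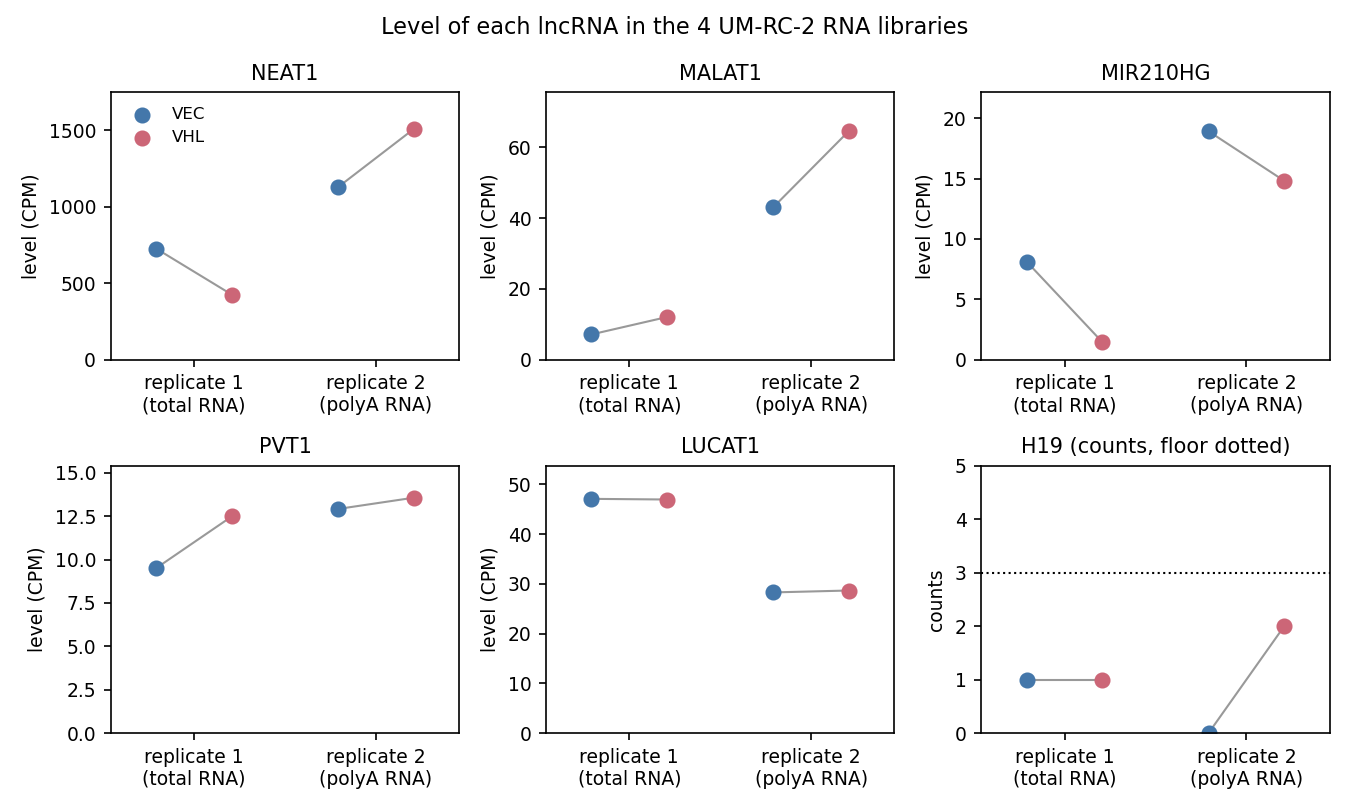
Level of each of the 6 lncRNAs in each library, in CPM after TMM scaling (H19 in raw counts, with the floor of 3 counts dotted). Points are single libraries, blue for VEC and red for VHL, and grey lines join the libraries of 1 replicate number. MIR210HG drops from 8.12 to 1.45 CPM in total RNA (1) and 18.9 to 14.8 in polyA RNA (2), and the NEAT1 lines slope in opposite directions.

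The microRNA that MIR210HG hosts cannot be read from these libraries. The MIR210 row of the tables had 4 counts in the VEC library of total RNA and 0 counts in each of the others, and it counts reads over the hairpin and not the mature form printed above. Of the genes beside MIR210HG in the RefSeq order, RASSF7, which encodes a Ras association domain protein, fell in VHL cells. Its level was 14.1 CPM against 7.77 CPM in total RNA, and 5.04 against 1.93 CPM in polyA RNA (edgeR with the block, log2 change -1.11 ± 0.33, adjusted p = 0.0288; group-only adjusted p = 0.99999). PHRF1, on the other side, had log2 differences of -0.16 and -0.41 and was not called (edgeR with the block, adjusted p = 0.791). LRRC56 had log2 differences of -3.06 and -0.02 and was not called either (edgeR with the block, adjusted p = 0.666), with 21 (VEC) and 1 (VHL) counts in total RNA.

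NEAT1, the paraspeckle scaffold, was lower with VHL in total RNA and higher with VHL in polyA RNA. Its level was 726 CPM (16813 counts) for VEC against 425 CPM (7925 counts) for VHL in total RNA, and 1128 CPM (51438 counts) against 1509 CPM (61614 counts) in polyA RNA. The VHL libraries were thus both the lowest and the highest of the 4, and the groups overlap. The log2 difference between VHL and VEC was -0.77 (counting interval -0.81 to -0.74) in total RNA and 0.42 (0.40 to 0.44) in polyA RNA. Both are far beyond counting error at this depth, but each rests on 1 library per group, and the difference between the pairs was not tested. Neither fit called NEAT1: the group-only fit gave 0.06 ± 0.82 and the blocked fit -0.18 ± 0.29 (SE, n = 2 libraries per group, adjusted p = 0.99999 and adjusted p = 0.945, edgeR). The short and the long form of NEAT1 share 1 row in the tables, so their levels are not known.

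Genes for proteins of the paraspeckle were not called, and more of them were higher than lower in VHL. Of 18 such genes, all were tested and 0 were called by edgeR with the block (0 without it, and 0 at an unadjusted p under 0.05 there). With the block 3.10% of all tested genes were called. In both pairs 10 of the 18 were higher in VHL and 2 lower. Over 13916 tested protein-coding genes these counts were 4146 and 4066, and over all 24417 tested genes 5558 and 6097. FAM98A came closest to a call, with log2 differences of 0.87 and 0.55 (edgeR with the block, 0.71 ± 0.22, adjusted p = 0.0513). Blocked alternatives called between 0 and 1 of them. Their median log2 difference was 0.20 in total RNA and 0.26 in polyA RNA. The median was -0.01 and 0.04 over tested protein-coding genes, and 0 and -0.01 over all tested genes. NONO, a core paraspeckle protein, was measured at 494 and 522 CPM (VEC and VHL) in replicate 1 and at 388 and 456 CPM in replicate 2 (edgeR with the block, adjusted p = 0.945). HNRNPK, an RNA-binding protein that acts on the choice between the NEAT1 forms, was at 621 CPM (VEC) against 614 (VHL) in total RNA and at 445 against 501 in polyA RNA (edgeR with the block, adjusted p = 0.983).

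MALAT1 was higher in VHL than in VEC in both pairs, by similar amounts. Its level was 7.13 CPM (165 counts) for VEC against 12.1 CPM (225 counts) for VHL in total RNA, and 43.1 CPM (1964 counts) against 64.7 CPM (2641 counts) in polyA RNA. The log2 difference was 0.75 (counting interval 0.46 to 1.06) and 0.59 (0.50 to 0.67), so the intervals overlap and both lie above 0. The groups still overlap, because each polyA library was above each total RNA library. The group-only fit gave 0.61 ± 1.40 and the blocked fit 0.66 ± 0.23 (SE, n = 2 libraries per group, adjusted p = 0.99999 and adjusted p = 0.0943, edgeR), so MALAT1 missed the threshold in both. It passed in 2 of the alternatives with the block, DESeq2 (adjusted p = 0.0298) and edgeR with pseudogenes left out (adjusted p = 0.0457, with 5.02% of genes called). The group-only value turned to -0.17 without VEC replicate 1 and to -1.15 without VHL replicate 2. The groups are then unequal in RNA preparation, so these values mix the difference between preparations with that between groups.

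Genes near NEAT1 and MALAT1 on the long arm of chromosome 11 were also measured, and those named here were not called. FRMD8, on the NEAT1 side, had log2 differences of 0.26 and 0.01 in total RNA and polyA RNA (edgeR with the block, adjusted p = 0.959). LTBP3, which encodes a TGF-beta binding protein, had 0.30 and -1.04 (edgeR with the block, adjusted p = 0.624). TALAM1, the antisense partner of MALAT1, had 41 counts in each total RNA library and 0 in each polyA library. Whether the counting used strand is not given in the sources used here, so reads of MALAT1 and TALAM1 may not be told apart. MIR612, within NEAT1, had 0 counts in all 4 libraries. Of 11 tested genes for RNase P, tRNA 3′ processing and splicing speckles, edgeR called 0 with the block and 0 without it (0 at an unadjusted p under 0.05). With the block 3.10% of all tested genes were called. SRSF1, a splicing factor of the speckles, was at 727 CPM (VEC) against 721 (VHL) in total RNA and at 321 against 505 in polyA RNA (edgeR with the block, adjusted p = 0.756).

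MALAT1, which lacks an ordinary poly(A) tail, and NEAT1, whose row joins a form with a tail and one without, were higher in the polyA libraries than in the total RNA libraries. MALAT1 was 6.04-fold higher in replicate 2 than in replicate 1 in VEC and 5.36-fold higher in VHL. NEAT1 was 1.55-fold higher in VEC and 3.55-fold higher in VHL. Where these stand depends on the genes they are set against. Among all tested genes, pseudogenes included, the log2 differences of MALAT1, 2.58 and 2.42, lie at the 59.3 and 59.0 percentiles. Those of NEAT1, 0.63 and 1.83, lie at the 48.6 and 56.2 percentiles. The median over all tested genes was 0.81 in VEC and 0.80 in VHL, and over 1936 tested lncRNA genes 2.84 and 2.78. Over 7665 tested pseudogenes it was 5.47 and 5.27, but over 13916 tested protein-coding genes -0.44 and -0.31. In VEC the upper quartile of the protein-coding genes was 0.93, with MALAT1 above it and NEAT1 below it.

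Most listed RNAs that lack an ordinary tail were lower in the polyA libraries. Of 19 tested RNAs of this kind, which include small structured RNAs and replication-dependent histone messages, 17 were lower in replicate 2 in both groups, with medians of -7.50 in VEC and -6.79 in VHL on the log2 scale. RN7SK, the RNA that holds the elongation factor P-TEFb inactive, was at 3538 CPM (VEC) against 3581 (VHL) in total RNA and at 16.1 against 18.4 in polyA RNA. RPPH1, the RNA of RNase P, was at 4472 CPM (VEC) against 3170 (VHL) in total RNA and at 3.38 against 3.82 in polyA RNA. The exceptions were SNORD3A and H2BC12, which were higher in replicate 2. Between the groups, edgeR with the block called 3 of the 19 (RN7SL1, RN7SL2 and SNORD3A), all with a negative change. In that fit 2.35% of all tested genes were called lower. RN7SL2 was lower with VHL in polyA RNA only (0.03 and -1.56). Without the block edgeR called 0 of the 19 (0 at an unadjusted p under 0.05). RN7SL1, an RNA of the signal recognition particle, had log2 changes of -0.51 in total RNA and -1.52 in polyA RNA (edgeR with the block, adjusted p = 0.00121). The preparation, the depth and the form of the alignment names all go with the replicate number, so they cannot be told apart here.

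**Figure D2:**
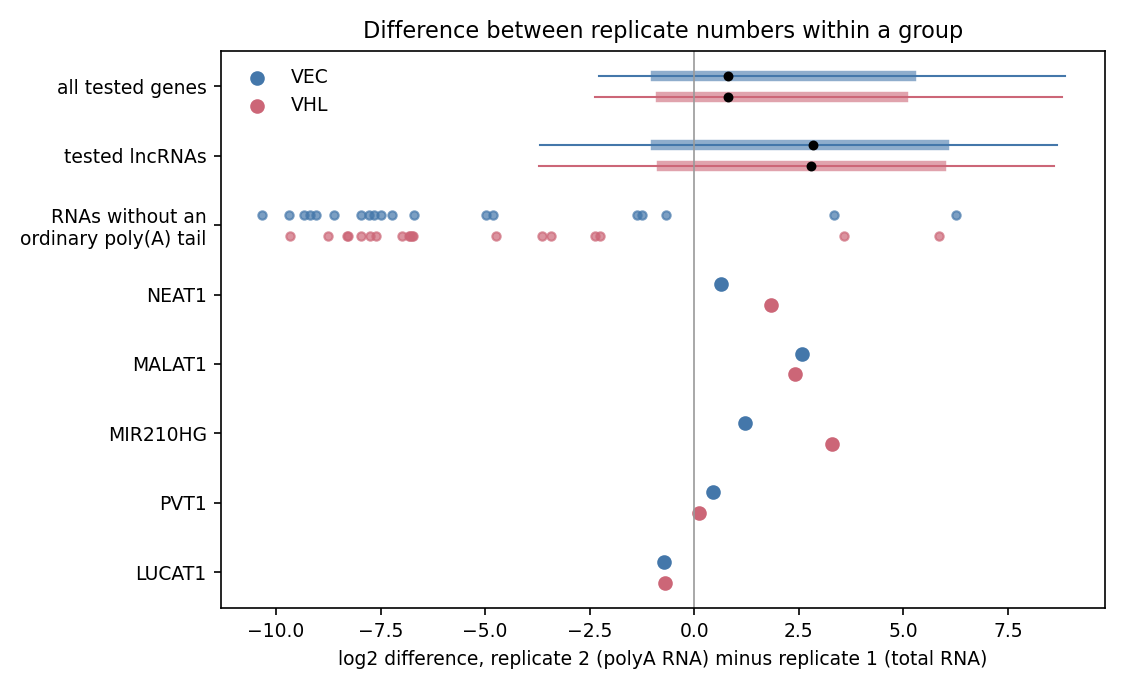
Log2 difference of level between replicate 2 (polyA RNA) and replicate 1 (total RNA), in VEC (blue) and VHL (red). For all tested genes and tested lncRNAs the thin line spans the 5th to 95th percentile, the thick line the quartiles and the black point the median, and other points are single genes. RNAs without an ordinary tail lie mostly far to the left, while MALAT1 (2.58 and 2.42) and NEAT1 (0.63 and 1.83) lie to the right of 0.

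In the other members the replicate difference varied. MIR210HG was 2.33-fold higher in replicate 2 in VEC and 10.2-fold higher in VHL, the widest gap between the groups among the 5. PVT1 was 1.36-fold higher in VEC and 1.09-fold higher in VHL, and the latter turned to a log2 difference of -0.27 when library sizes were not adjusted. LUCAT1 was lower in replicate 2, by 0.73 and 0.71 on the log2 scale. Scaling by total counts shifts every such difference by -0.25 in VEC and -0.39 in VHL, and scaling by DESeq2 size factors by 0.23 and 0.11.

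PVT1, the transcript beside MYC, differed little between the groups. Its level was 9.50 CPM (220 counts) for VEC against 12.5 CPM (233 counts) for VHL in total RNA, and 12.9 CPM (589 counts) against 13.6 CPM (554 counts) in polyA RNA. VEC replicate 1 was the lowest and the other libraries lay close together, with VHL replicate 1 below VEC replicate 2, so the groups overlap. The log2 difference was 0.39 (counting interval 0.12 to 0.67) in replicate 1 and 0.07 (-0.10 to 0.24) in replicate 2. Neither fit called it, at 0.22 ± 0.88 group-only and 0.23 ± 0.28 blocked (SE, n = 2 libraries per group, adjusted p = 0.99999 and adjusted p = 0.898, edgeR). MYC, which encodes a growth-promoting transcription factor, was at 79.5 CPM (VEC) against 103 (VHL) in total RNA and at 89.5 against 100.3 in polyA RNA. Its log2 differences of 0.37 and 0.16 were not called (edgeR with the block, adjusted p = 0.748). The microRNAs within PVT1 had at most 15 counts in a library, and MIR1204, the most counted, had 12 (VEC) and 15 (VHL) counts in total RNA and 1 and 0 in polyA RNA.

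LUCAT1 was nearly equal in VEC and VHL of the same pair. Its level was 47.1 CPM (1090 counts) for VEC against 47.0 CPM (876 counts) for VHL in total RNA, and 28.3 CPM (1290 counts) against 28.7 CPM (1171 counts) in polyA RNA. Each pair is close, and the pairs stand apart. The counting intervals of the log2 difference were -0.13 to 0.13 in replicate 1 and -0.10 to 0.13 in replicate 2, which bounds the difference between these libraries as far as counting goes. The blocked fit gave 0.01 ± 0.22 and the group-only fit 0.00 ± 0.68 (SE, n = 2 libraries per group, adjusted p = 0.999 and adjusted p = 0.99999, edgeR). A missed threshold does not show that the groups were alike.

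The neighbour of LUCAT1 behaved differently. ARRDC3, which encodes an arrestin-domain protein, fell from 359 to 123 CPM in total RNA and to 80.9 from 164 CPM in polyA RNA. Both VHL libraries lie below both VEC libraries, as they do for 3.39% of tested genes (4.47% have both VHL libraries above). Of the 5 tested members, 0 had groups that did not overlap. The blocked log2 change of ARRDC3 was -1.28 ± 0.23 (adjusted p = 1.03e-05, edgeR), and its group-only adjusted p was 0.99999. ARRDC3-AS1, its antisense partner, had 94 (VEC) and 44 (VHL) counts in total RNA and 1 and 3 in polyA RNA and was not called (edgeR with the block, adjusted p = 0.922). LINC00461, a listed lncRNA that is not among the nearest genes on either side of LUCAT1 in the RefSeq order, was counted in polyA RNA alone. It had 275 (VEC) and 202 (VHL) counts there. In all, 14 genes of the list of neighbouring and hosted genes were tested and 2 were called in the blocked fit, RASSF7 and ARRDC3, both lower. That fit called 2.35% of all tested genes lower. The group-only fit called 0 of the list (0 at an unadjusted p under 0.05).

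Genes that NRF2 is known to drive, as it does LUCAT1, were called in both directions. Of 14 tested, 3 were called in the blocked fit, 2 higher and 1 lower, where 0.749% of all tested genes were called higher and 2.35% lower (0 of the list without the block, and 0 at an unadjusted p under 0.05 there), and blocked alternatives called between 1 and 4. HMOX1, heme oxygenase, which is also known as a HIF target, fell from 157 to 79.3 CPM in total RNA and 56.7 to 30.1 in polyA RNA (edgeR with the block, -0.95 ± 0.22, adjusted p = 0.00106). SRXN1, sulfiredoxin, rose from 233 to 394 CPM in total RNA and 67.6 to 118 in polyA RNA (edgeR with the block, 0.78 ± 0.23, adjusted p = 0.0347). ME1, malic enzyme, rose from 116 to 188 CPM in total RNA and 153 to 262 in polyA RNA (edgeR with the block, 0.74 ± 0.23, adjusted p = 0.0459). AKR1B10, an aldo-keto reductase, had log2 differences of -0.02 and 0.61, and TXNRD1, thioredoxin reductase, of 0.18 and 0.58, and neither was called (edgeR with the block, adjusted p = 0.892 and 0.798).

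H19 was at the edge of detection. It had 1 count (VEC) and 1 count (VHL) in total RNA, and 0 and 2 in polyA RNA. All 4 values lie under the floor of 3 counts, which corresponds to 0.130 and 0.161 CPM in total RNA (VEC and VHL) and to 0.0658 and 0.0734 CPM in polyA RNA, so no fold is given and the gene was not tested. IGF2, the growth factor gene imprinted together with H19, and MIR675, the microRNA within H19, had 0 counts in all 4 libraries. MRPL23, which encodes a mitochondrial ribosomal protein and overlaps H19 in the RefSeq table, was expressed, at 39.0 CPM (VEC) against 31.8 (VHL) in total RNA and at 14.9 against 10.0 in polyA RNA (edgeR with the block, adjusted p = 0.465). LSP1, a further neighbour, had 0 counts in total RNA and 33 (VEC) and 18 (VHL) in polyA RNA.

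Of 16 imprinted genes listed, 9 were tested and 1 was called in the blocked fit, which called 3.10% of all tested genes. The called gene was PHLDA2, a regulator of placental growth. It rose, with 0 (VEC) and 26 (VHL) counts in total RNA and 49 and 90 in polyA RNA (edgeR with the block, 2.02 ± 0.61, adjusted p = 0.0365; group-only adjusted p = 0.99999). KCNQ1OT1, the imprinted antisense lncRNA of KCNQ1, was at 90.2 CPM (VEC) against 124 (VHL) in total RNA and at 1080 against 1104 in polyA RNA. It was not called (edgeR with the block, adjusted p = 0.864), and its replicate difference far exceeds its group difference. PEG10, a retrotransposon-derived gene, was at 381 CPM (VEC) against 405 (VHL) in total RNA and at 374 against 414 in polyA RNA (edgeR with the block, adjusted p = 0.964).

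**Figure D3:**
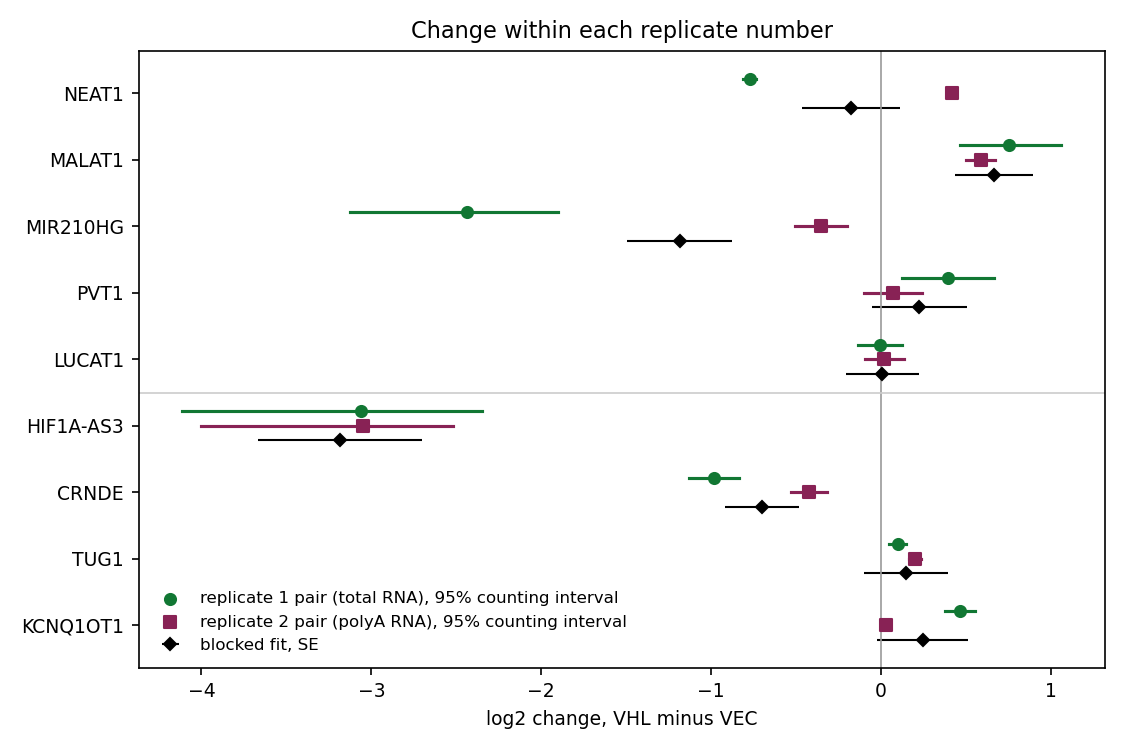
Log2 change from VEC to VHL within replicate 1 (green circles, total RNA) and replicate 2 (purple squares, polyA RNA), each with its 95% counting interval, and the blocked estimate with its SE (black). The 5 tested members stand above the line and 4 other hypoxia-linked lncRNAs below it. MIR210HG lies at -2.44 and -0.35, and HIF1A-AS3 at -3.06 and -3.05.

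Among other lncRNAs linked to hypoxia, the antisense transcripts of HIF1A were the ones that fell most. The list names 40 symbols, of which 38 are in the tables and 33 were tested. In the blocked fit 3 were called, all lower (HIF1A-AS2, HIF1A-AS3 and CRNDE), or 9.09% of those tested, against 1.19% of 1936 tested lncRNA genes (1.08% lower and 0.103% higher). HIF1A-AS2 and HIF1A-AS3 overlap each other in the RefSeq table, so their calls may not be separate. Without the block edgeR called 0, and 0 had an unadjusted p under 0.05. The median blocked change of the list was -0.07, against -0.01 over tested lncRNA genes, and blocked alternatives called between 2 and 3. These counts are not always of the same genes: DESeq2 with the block also called 3 of the list, and neither HIF1A-AS2 nor HIF1A-AS3 was among them.

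HIF1A-AS3 had 145 (VEC) and 13 (VHL) counts in total RNA, and 187 and 18 in polyA RNA. Both VHL libraries lie below both VEC libraries, and the changes were alike, at -3.06 and -3.05 on the log2 scale. The blocked fit gave -3.19 ± 0.48 (adjusted p = 1.64e-08, edgeR; group-only adjusted p = 0.99999). HIF1A-AS2 had 232 and 20 counts in total RNA and 0 in both polyA libraries, so its call (-3.19 ± 0.67, adjusted p = 0.000252, edgeR) rests on the total RNA pair alone. DESeq2 with the block gave no adjusted p (NA) for either, at log2 changes of -3.23 ± 0.59 (HIF1A-AS3) and -2.28 ± 1.91 (HIF1A-AS2), so neither is called there. Both overlap HIF1A, the gene of a HIF alpha subunit, in the RefSeq table, and they overlap each other. Reads of overlapping genes may not be told apart. HIF1A itself went the other way, from 112 to 213 CPM in total RNA and 41.5 to 100.2 in polyA RNA (edgeR with the block, 1.10 ± 0.22, adjusted p = 0.000103).

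CRNDE, a lncRNA raised in several tumours, was at 55.1 against 27.9 CPM in total RNA, and at 37.9 against 28.3 CPM in polyA RNA (edgeR with the block, -0.70 ± 0.22, adjusted p = 0.0458), close to the threshold. The most abundant of those not called were KCNQ1OT1, given above, and TUG1, a nuclear and cytoplasmic RNA that RefSeq classes as protein-coding. TUG1 was at 318 CPM (VEC) against 340 (VHL) in total RNA and at 304 against 349 in polyA RNA (edgeR with the block, 0.15 ± 0.25, adjusted p = 0.946).

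Protein-coding HIF targets moved together, unlike the 5 tested members. Of 24 listed genes 23 were tested, and 21 were called lower and 0 higher in the blocked fit (91.3%, with 2.35% of all tested genes called lower). Their median change was -1.59 in the blocked fit, and 23 of 23 were lower in VHL in both pairs. Of the 5 tested members, 1 was lower and 2 were higher in both pairs. Over all 24417 tested genes 6097 were lower and 5558 higher in both pairs, and over 1936 tested lncRNA genes 337 and 341. With 5 members, their shares cannot be compared closely with these. Without the block edgeR called 0, and 6 had an unadjusted p under 0.05. CA9, carbonic anhydrase 9, had 1562 (VEC) and 29 (VHL) counts in total RNA and 2820 and 57 in polyA RNA. Those not called were BHLHE40, a transcriptional repressor, and HILPDA, a lipid droplet protein. This list overlaps genes already known to fall in these libraries and is no independent evidence of direction.

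**Figure D4:**
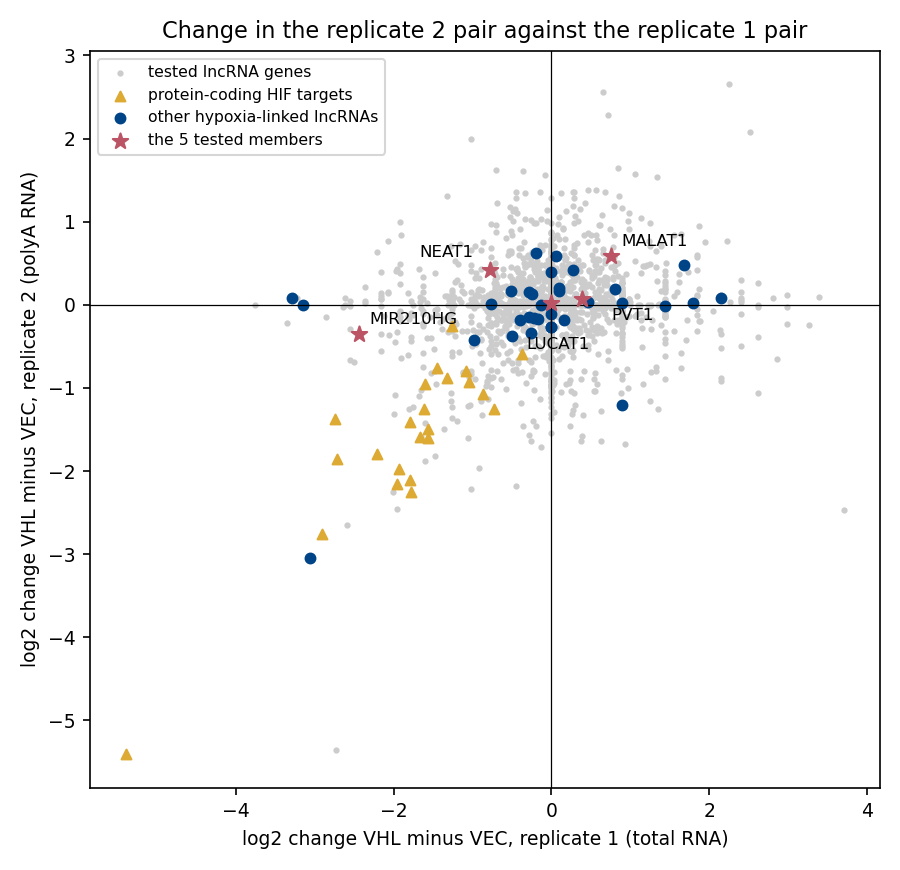
Log2 change from VEC to VHL in replicate 2 (vertical axis, polyA RNA) against replicate 1 (horizontal axis, total RNA) for 1936 tested lncRNA genes (grey), 23 protein-coding HIF targets (yellow triangles), 33 other hypoxia-linked lncRNAs (blue) and the 5 tested members (red stars). HIF targets fill the lower left, where both pairs are lower in VHL, while of the members only MIR210HG (-2.44 and -0.35) lies on that side.

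The genes with the most similar profiles over the 4 libraries were found by Euclidean distance of log2 CPM, each gene centred on its mean, among 14385 genes that were not pseudogenes and had a mean of at least 1 CPM. For MIR210HG these were ATP11A-AS1 (distance 0.46), NDUFA6-DT (0.63) and CCDC30 (0.65), all farther away than the nearest genes of any other member. For NEAT1 they were MALINC1, MROCKI and TSHZ3, at distances from 0.22 to 0.23. For MALAT1 they were SH3RF3-AS1 (0.11), SERPINB9 (0.14) and LOC105371267 (0.14). The nearest genes were ZFP69B, TATDN2 and SNHG4 for PVT1, at distances from 0.03 to 0.04, and UBE4B, ZCCHC8 and RPL5 for LUCAT1, also from 0.03 to 0.04. None of these 15 genes was called in the blocked fit, which called 3.10% of all tested genes. With 4 libraries, such likeness describes these libraries only.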

How the data were processed

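RNA values were the raw counts per gene symbol deposited by the authors, made from sorted hg19 alignments per the file headers. featureCounts and HOMER are named for these samples in the submitters' processing notes, without version or role. The aligner, the annotation, the strand setting and the handling of multi-mapped reads are not given in the sources used here. Genes were classed with the RefSeq table of GRCh38.p14, which matched 42760 of 43682 symbols (97.9%).

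Counts were tested over the whole table in R 4.3.3 with edgeR 4.0.16 (filterByExpr, TMM, glmQLFit and glmQLFTest, two-sided, Benjamini-Hochberg over 24417 genes), with group as the only term and, as an alternative, with the replicate number as a block. SEs were derived as |log2 change|/√F. The number pairs libraries whose label gives the same molecule (total RNA or polyA RNA), and deviations from the group means correlated at r = 0.982 between same-numbered libraries. Common dispersion was 2.57 without the block (2 residual degrees of freedom) and 0.0251 with it (1 degree). Changes within a pair are log2 differences of TMM-scaled CPM (prior count 2), with exact conditional binomial intervals (95%) for counting error only. DESeq2 1.42.0, other scalings and filters, and leaving out each library were alternatives.

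The members and lists were chosen with earlier results of these data known. Named genes were the members, called genes of each list (blocked fit, equal sign in both pairs) (at most 6), the 2 most abundant of those not called, the tested neighbours, and the 3 most similar genes per member. The result of 1 listed neighbour is not reported here. The H3K27ac tables were not used, since their regions carry no positions.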

Additional observations from a re-analysis of the deposited data

How the results depend on the processing

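The count of members called was 0 in every fit without the block, and 1 with the replicate block, alone or with DESeq2 size factors, total counts, DESeq2's test, the stricter filter or no filter, and 2 with the block and pseudogenes left out. The called member was MIR210HG, except in blocked DESeq2, where it was MALAT1. Over all genes the replicate block gave 756 calls, and with it 999 (DESeq2 size factors), 9.7e+02 (total counts, given to 2 significant digits), 1203 (DESeq2), 770 (stricter filter), 640 (no filter) and 841 (pseudogenes left out). Without it, DESeq2 called 6 genes, none of them a member, and the other fits 0. Over the genes of all lists other than the members, the counts in the same order were 33, 35, 35, 32, 34, 29 and 37, and 1 in DESeq2 without the block.

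The sign of NEAT1 rests on the fit. Its group-only 0.06 turned to -0.0056 with total counts, and with the replicate block to -0.18, -0.21 (DESeq2 size factors), -0.16 (total counts), -0.21 (DESeq2), -0.18 (stricter filter), -0.19 (no filter) and -0.19 (pseudogenes left out). LUCAT1 stayed near 0, at -0.018 with DESeq2 size factors and in DESeq2, -0.011 without a filter, -0.0033 with the stricter filter, -0.0028 with pseudogenes left out, and with the block at -0.028 (DESeq2 size factors and DESeq2), -0.0051 (no filter) and -0.0060 (pseudogenes left out). The cause was not tested. Leaving out 1 library gave from -1.18 to 0.70 for NEAT1, -1.15 to 2.47 for MALAT1, -3.29 to 0.13 for MIR210HG, -0.39 to 0.42 for LUCAT1 and, for PVT1 (0.22 with all libraries), 0.012 without VEC replicate 1 to 0.49 without VEC replicate 2. Without 1 library the groups are unequal in RNA preparation, so these values mix preparation with group. The lone library of a group is then assumed to vary like the other group. With the block no residual degree of freedom would be left, so those fits were not run.

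Scaling moved some differences by more than their counting interval. Within pairs these were NEAT1 in replicate 1 (-0.69 with total counts), NEAT1 in replicate 2 (0.32 with DESeq2 size factors, 0.36 with total counts) and MALAT1 in replicate 2 (0.49 with DESeq2 size factors). Between replicates, with total counts, they were NEAT1 (0.38 VEC, 1.44 VHL), MALAT1 (2.33, 2.03), MIR210HG (0.96 VEC), PVT1 (0.19, -0.27) and LUCAT1 (-0.99, -1.10). With DESeq2 size factors they were NEAT1 (0.87, 1.94), PVT1 (0.67 VEC) and LUCAT1 (-0.50 VEC). By construction a scaling shifts all genes alike. Depth limits MIR210HG, with 27 counts in VHL replicate 1, and H19.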

Other observations

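Beyond the lists, lncRNA genes called in the blocked fit were mostly lower in VHL cells. Of 1936 tested, 23 were called, 21 lower and 2 higher, and 21 of the 23 had the same sign in both pairs. The others, HIF1A-AS2 and LINC02348, had 0 counts in both replicate 2 libraries. The genes named here were chosen after their values were seen. TTC21B-AS1 had the smallest adjusted p of the class, with 262 and 31 counts in VEC and VHL of replicate 1 and 250 and 3 in replicate 2 (blocked -3.83 ± 0.45, adjusted p = 1.08e-14, edgeR). DGCR5, with 1383 and 535 counts and 1425 and 545 counts, fell by 1.14 on the log2 scale (blocked SE 0.22, adjusted p = 4.86e-05, edgeR). SNHG6, a host of small nucleolar RNAs, had 2584 and 1175 counts and 3888 and 1771 counts (blocked -0.90 ± 0.22, adjusted p = 0.00227, edgeR). LINC01914 and PRKCQ-AS1 were the 2 that rose, and neither exceeded 36 counts in a library.

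Several lncRNAs that have been linked to hypoxia in other settings were counted almost wholly in the polyA libraries. CDKN2B-AS1 had 0 and 1 counts in replicate 1 and 2519 (VEC) and 2282 (VHL) in replicate 2, and LINC00887 had 0 and 4 counts against 993 and 939. Antisense transcripts are uncertain, because the use of strand is not given in the sources used here.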
